A study of Mus musculus with 6 samples.

Results

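The 8 genes described here encode costimulatory molecules of T cells. They are the TNF receptor superfamily members Tnfrsf9 (4-1BB), Tnfrsf4 (OX40), Tnfrsf18 (GITR) and Cd27, the CD28 family members Cd28 and Icos, the immunoglobulin superfamily receptor Cd226 (DNAM-1) and the CD40 ligand Cd40lg. They were chosen by name, 8 of the 32286 genes counted, and all 8 were present in every matrix. The data are droplet single-cell RNA counts with antibody tags from immune cells of mouse livers, sampled at day 30 after infection with an adeno-associated virus (AAV) or after mock infection. The livers received AAV-sgBaat, a guide RNA vector against Baat (the enzyme that conjugates bile acids to amino acids), AAV-sgSCR, the control guide vector, or mock treatment. Each group is 1 mRNA library made from a pool of 3 tumor samples, so animals within a group cannot be told apart and no test between groups is possible. One label describes the mock livers as native and another counts them among tumor-bearing livers. No strain or age is named, and the labels do not say which cells carry the CD90.1 allele.

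Costimulatory receptors give a T cell the second signal that accompanies recognition of antigen by the T cell receptor. Cd28 and Cd27 are carried by resting T cells, while Icos, 4-1BB, OX40 and GITR are induced or raised by activation, and regulatory T cells carry OX40 and GITR at rest. The TNF receptor superfamily members signal through TRAF adaptor proteins to NF-kB, CD28 and ICOS signal through phosphoinositide 3-kinase, and Cd40lg is itself a TNF family ligand that T cells show to CD40 on B cells and dendritic cells.

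Positions are those of RefSeq on GRCm38.p6, the assembly also called mm10. Tnfrsf4 (ENSMUSG00000029075, chr4:156013595-156016613) and Tnfrsf18 (ENSMUSG00000041954, chr4:156026322-156028894) lie 9708 bases apart with 0 protein-coding genes between them. Tnfrsf9 (ENSMUSG00000028965, chr4:150920155-150946104) is on the same chromosome. Cd28 (ENSMUSG00000026012, chr1:60746388-60773359) and Icos (ENSMUSG00000026009, chr1:60960773-61000322) flank Ctla4, the inhibitory receptor that shares the ligands of Cd28.

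The sequences below are shown because Tnfrsf4 and Tnfrsf18 were both lower in AAV-sgBaat cells of one class in which Tnfrsf9 was not. RefSeq promoter entries matched 4 of the 8 members. Each 250-base window before a start was searched on both strands for a short NF-kB motif (GGNNNTTCC, reverse GGAANNNCC) and an AP-1 motif (TGANTCA, the same on both strands). Across all 32851 promoter windows of that length, 15.7% held the NF-kB motif and 6.75% the AP-1 motif. The windows of Tnfrsf4, Tnfrsf18, Cd27 and the first start of Tnfrsf9 held neither. The second annotated start of Tnfrsf9, which lies inside the gene's span, had 1 match to each, 42 and 15 bases before the start, with no overlap between them. The 42 bases before that start (chr4:150927957-150927998, + strand) are shown with both matches in capitals. The 150 bases before the annotated Tnfrsf4 gene (chr4:156013445-156013594, + strand) and the 250 bases before Tnfrsf18 (chr4:156026072-156026321, + strand) follow in lower case, without a match.
Tnfrsf9, second start: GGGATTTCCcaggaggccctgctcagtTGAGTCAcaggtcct
Tnfrsf4: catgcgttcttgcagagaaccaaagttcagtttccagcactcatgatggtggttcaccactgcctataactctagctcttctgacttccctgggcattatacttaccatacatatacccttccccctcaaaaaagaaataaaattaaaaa
Tnfrsf18: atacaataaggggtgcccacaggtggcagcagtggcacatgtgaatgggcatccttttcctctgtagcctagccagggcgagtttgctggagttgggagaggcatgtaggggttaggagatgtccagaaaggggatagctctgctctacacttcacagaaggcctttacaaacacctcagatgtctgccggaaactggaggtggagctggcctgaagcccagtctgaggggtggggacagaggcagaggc

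The other members lie on other chromosomes. Cd27 (ENSMUSG00000030336) is at chr6:125232620-125237136, Cd226 (ENSMUSG00000034028) at chr18:89176954-89272232 and Cd40lg (ENSMUSG00000031132) at chrX:57212143-57224042.

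The AAV-sgBaat, AAV-sgSCR and mock matrices held 9386, 8073 and 6431 barcodes, of which 7094, 7332 and 6068 passed the filters. Lymphocytes were assigned to classes from their RNA and their CD90 tags. CD8 cells were called CD90.1-dominant or CD90.2-dominant by the larger of the tags, and numbered 229, 867 and 12 and 340, 668 and 514 cells in AAV-sgBaat, AAV-sgSCR and mock. Conventional CD4 cells (72, 119 and 299), Foxp3-positive regulatory T cells (7, 19 and 29), NKT-like cells (57, 124 and 442), gamma-delta T cells (40, 64 and 82), NK cells (91, 108 and 405), ILC1 (66, 109 and 98) and immature T-like cells (1047, 139 and 28) were the other named classes. All named classes, CD8 included, held 1949, 2217 and 1909 of 2333, 2741 and 2358 gated T and NK cells. Outside them were other T cells (332, 484 and 425), CD8 cells without a dominant tag (24, 22 and 14) and unresolved NK or ILC1 cells (28, 18 and 10). All 9 T cell markers had a UMI in each T cell class of each library. T and NK barcodes that also carried genes of another lineage made up 49.4%, 33.2% and 12.4% of their gate in AAV-sgBaat, AAV-sgSCR and mock, and were left out. Of the passing barcodes, 10 to 16 were shared between any pair of libraries. Baat itself had 1, 15 and 5 UMIs in all passing cells of AAV-sgBaat, AAV-sgSCR and mock, so its editing in hepatocytes could not be checked in these sorted immune cells.

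Levels are the UMIs (unique molecules) of a gene summed over a class and scaled to all gene UMIs of that class (CPM). Intervals are 95% exact Poisson intervals for sums, exact conditional intervals for ratios and exact Clopper-Pearson intervals for shares of cells. All of them cover counting error only, not the spread between mice. A gene is called higher or lower at 1.5-fold or more with at least 20 UMIs over both sums, and ratios were taken for classes with at least 50 cells on both sides. In a summed level, fewer expressing cells and less RNA per cell cannot be told apart, which is why counts per cell are also given.

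CD90.1-dominant CD8 cells of AAV-sgBaat livers carried less RNA of most inducible costimulatory receptors than those of AAV-sgSCR livers. Tnfrsf4, Icos, Cd28, Tnfrsf18 and Cd40lg fell past 1.5-fold, 5 of the 8 members, and 0 were higher. Of 9604 genes with enough UMIs, 25.4% passed the fold, 10.3% higher and 15.1% lower. The median log2 ratio was -1.31 over the members and -0.02 over all genes. Tnfrsf9, Cd27 and Cd226 did not pass.

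Tnfrsf4 had the largest difference of the 8. It had 3 UMIs in 229 AAV-sgBaat cells, or 3.38 CPM, against 309 UMIs in 867 AAV-sgSCR cells, or 64.8 CPM. The log2 ratio was -4.26 (-6.55 to -2.70), and 5 of the 9604 genes, itself among them, were at least as low. In that rank a sum of 0 UMIs was set to 3, so genes absent from AAV-sgBaat cells can rank as less low than they were. No AAV-sgBaat cell had more than 1 Tnfrsf4 UMI, whereas 70 AAV-sgSCR cells had at least 2 and 18 had at least 5. Tnfrsf18, its chromosomal neighbour and the receptor GITR, had 67 UMIs (75.5 CPM) in AAV-sgBaat cells, against 783 UMIs (164 CPM) in those of AAV-sgSCR, a log2 ratio of -1.12 (-1.50 to -0.76).

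Both CD28 family members were lower as well. Icos, which supports activated and follicular T cells, had 8 UMIs (9.02 CPM) in AAV-sgBaat cells and 192 UMIs (40.3 CPM) in AAV-sgSCR cells, with a log2 ratio of -2.16 (-3.39 to -1.15). Cd28, the receptor for CD80 and CD86, had 31 UMIs (34.9 CPM) in AAV-sgBaat cells and 468 UMIs (98.1 CPM) in AAV-sgSCR cells, with a log2 ratio of -1.49 (-2.06 to -0.96). The counting intervals of these sums did not overlap between the libraries. Cd40lg rested on 1 UMI in AAV-sgBaat against 19 in AAV-sgSCR, and its interval of -7.20 to 0.83 around a log2 ratio of -1.82 included no difference.

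The remaining receptors had close levels in both libraries. Tnfrsf9, a receptor induced by antigen and used to mark tumor-reactive CD8 cells, had 82.3 CPM in AAV-sgBaat and 92.7 CPM in AAV-sgSCR, a log2 ratio of -0.17 (-0.55 to 0.19). Cd27, the CD70 receptor of resting and memory T cells, had 132 CPM in AAV-sgBaat and 140.3 CPM in AAV-sgSCR (-0.09, interval -0.39 to 0.20). Cd226, which binds Pvr and Nectin2, had 116 CPM in AAV-sgBaat and 117 CPM in AAV-sgSCR (-0.01, interval -0.33 to 0.29). These bounds lie within 1.5-fold for all 3 genes, but Tnfrsf9 passed the fold at -0.72 when each cell was thinned to 1000 UMIs.

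**Figure D1:**
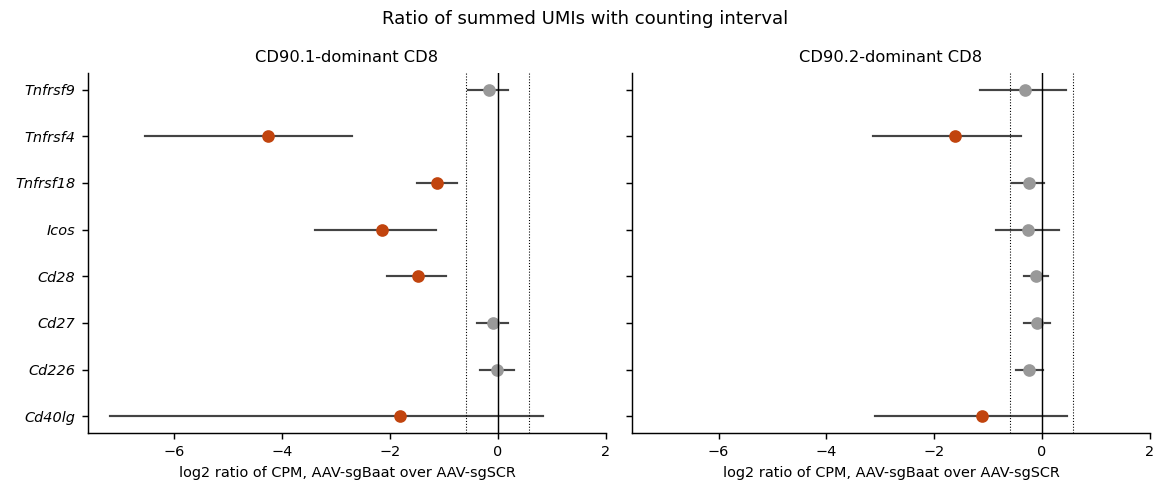
Log2 ratio of CPM, AAV-sgBaat over AAV-sgSCR, for the 8 genes in CD90.1-dominant (left) and CD90.2-dominant (right) CD8 cells. Points are ratios of summed UMIs (red where called, grey where not), lines are 95% counting intervals and dotted lines mark 1.5-fold. Tnfrsf4 sits at -4.26 on the left and -1.62 on the right, while Tnfrsf9, Cd27 and Cd226 lie near 0 on both sides.

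Inhibitory receptors fell in these cells as well. Ctla4 fell to 28.2 CPM in AAV-sgBaat, against 117 CPM in AAV-sgSCR, a log2 ratio of -2.05. Tigit, the inhibitory counterpart of Cd226, had 6.76 CPM in AAV-sgBaat and 17.6 CPM in AAV-sgSCR (-1.38). Pdcd1 had 193 CPM in AAV-sgBaat and 290.0 CPM in AAV-sgSCR (-0.59), just past the fold. Tigit rested on 6 AAV-sgBaat UMIs, and its intervals (2.48 to 14.7 and 14.05 to 21.8 CPM) overlapped. These drops were not particular to CD90.1-dominant cells. In CD90.2-dominant CD8 cells Pdcd1 had 10.5 CPM in AAV-sgBaat and 33.4 CPM in AAV-sgSCR, and Ctla4 had 7.84 and 31.6 CPM. Tigit had too few UMIs for a call there (0 in AAV-sgBaat and 13 in AAV-sgSCR).

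The share of cells with a UMI showed the same genes. Unthinned, Tnfrsf4 was found in 1.31% of AAV-sgBaat and 15.0% of AAV-sgSCR CD90.1-dominant CD8 cells, whose median depths were 3418 and 4825 UMIs. After thinning each cell to 1000 UMIs it was found in 0 of 229 AAV-sgBaat cells, where 3 cells would be 1.31% and the exact upper limit is 1.60%, and in 5.19% (3.81 to 6.88) of AAV-sgSCR cells. Such limits are on cells with a UMI, not on cells that express the gene. B cells, a class not known for OX40, had a Tnfrsf4 UMI in 0.317% of AAV-sgBaat and 1.25% of AAV-sgSCR cells at median depths of 2203 and 2904 UMIs. The unthinned AAV-sgBaat share of CD8 cells, from 3 cells, had an interval (0.271 to 3.78) that overlapped that of AAV-sgBaat B cells (0.00804 to 1.76).

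Tnfrsf18 was found in 24.0% of AAV-sgBaat and 49.4% of AAV-sgSCR cells unthinned, and in 8.30% and 15.9% of AAV-sgBaat and AAV-sgSCR cells after thinning, against 3.81% and 6.58% of AAV-sgBaat and AAV-sgSCR B cells. Icos was found in 2.62% of AAV-sgBaat and 16.7% of AAV-sgSCR cells, or 1.75% and 3.58% after thinning, and in 0 of 315 AAV-sgBaat and 0 of 638 AAV-sgSCR B cells, where the exact upper limits are 1.16% and 0.577%. Cd28 was found in 9.61% of AAV-sgBaat and 32.2% of AAV-sgSCR cells, or 3.93% and 8.77% after thinning, against 1.27% and 2.19% of AAV-sgBaat and AAV-sgSCR B cells. The thinned intervals of Tnfrsf4 and Tnfrsf18 did not overlap between AAV-sgBaat and AAV-sgSCR, while those of Icos and Cd28 did. For Cd27 the thinned shares were 12.7% in AAV-sgBaat and 13.1% in AAV-sgSCR, and for Cd226 they were 9.61% and 10.4%.

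Much of the difference in Tnfrsf4 lay in one set of AAV-sgSCR cells. Cells with at least 2 UMIs of the 7 genes Igfbp7, Nrn1, Gpm6b, C2cd4b, Csf1, Ccl1 and Penk, which earlier results had shown to mark a population of the AAV-sgSCR library, made up 4 of 229 CD90.1-dominant CD8 cells (1.75%) in AAV-sgBaat and 236 of 867 (27.2%) in AAV-sgSCR. As the 7 genes were picked from these same data, their excess in AAV-sgSCR follows in part from that choice. The set is a cut on a count per cell: in AAV-sgSCR 512 cells had 0 such UMIs, 119 had 1, 51 had 2 and 185 had at least 3. Trac had 882 CPM in the marked AAV-sgSCR cells and 1024 CPM in the others. Of 2 genes also used by migratory dendritic cells, Fscn1 was at 0 UMIs in both and Ccr7, which T cells carry too, had 37.5 CPM in the marked cells (51 UMIs) and 4.99 CPM in the others (17 UMIs). The 236 cells held 265 of the 309 Tnfrsf4 UMIs.

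Within AAV-sgSCR, the marked cells had higher levels of every member than the other 631 CD90.1-dominant cells, at median depths of 4760.5 and 4850 UMIs. Tnfrsf4 had 195 CPM in the marked cells and 12.9 CPM in the others. Icos had 86.8 CPM in the marked cells and 21.7 CPM in the others, and Cd28 had 179 and 66.0 CPM. Tnfrsf18 had 233 CPM in the marked cells and 137 CPM in the others, and Tnfrsf9 had 133 and 76.5 CPM. Cd27 (180.3 and 124 CPM), Cd226 (130.3 and 112 CPM) and Cd40lg (10.3 and 1.47 CPM) were also higher in the marked cells, by smaller steps for Cd27 and Cd226.

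Leaving such cells out of both libraries, a choice made after seeing the data, left 4 of the 8 genes past 1.5-fold, where 23.4% of all genes passed. Cd40lg then had too few UMIs for a call (1 in AAV-sgBaat and 5 in AAV-sgSCR). The 225 remaining AAV-sgBaat cells had 3.47 CPM of Tnfrsf4, 8.10 CPM of Icos, 34.7 CPM of Cd28 and 75.2 CPM of Tnfrsf18, all below the AAV-sgSCR values of the unmarked cells given above. The log2 ratio of Tnfrsf4 was then -1.89, against -4.26 with all cells, and that of Cd28 was -0.93. The remaining AAV-sgBaat cells held 3 Tnfrsf4 UMIs. Their interval (0.716 to 10.1 CPM) overlapped that of the unmarked AAV-sgSCR cells (9.38 to 17.3 CPM). Tnfrsf9 had 83.3 CPM in the remaining AAV-sgBaat cells and 76.5 CPM in the unmarked AAV-sgSCR cells.

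**Figure D2:**
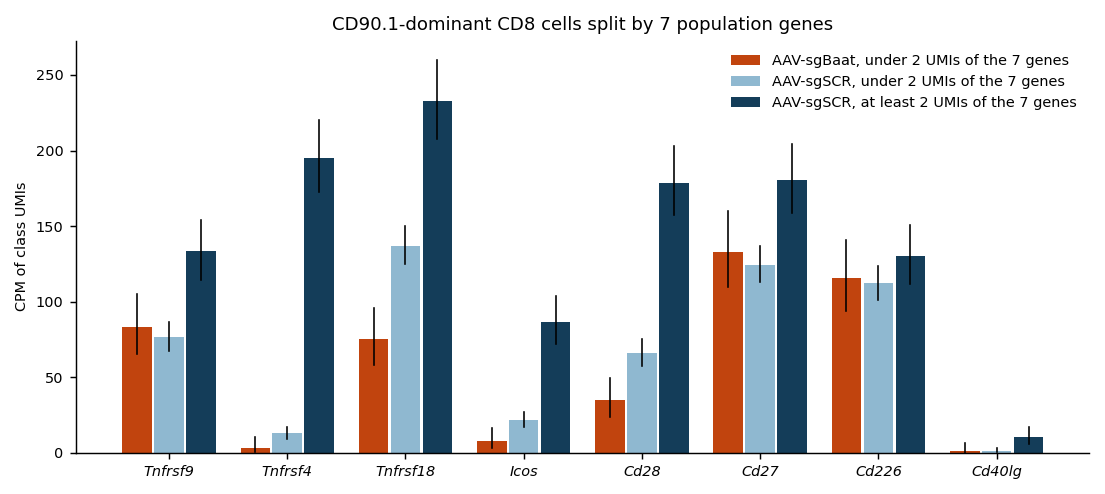
CPM of the 8 genes in CD90.1-dominant CD8 cells, with 95% Poisson intervals as lines. Bars are AAV-sgBaat cells with under 2 UMIs of the 7 population genes (red, 225 cells), AAV-sgSCR cells with under 2 (light blue, 631 cells) and AAV-sgSCR cells with at least 2 (dark blue, 236 cells). Tnfrsf4 stands at 195 CPM in the dark bar, against 12.9 CPM in the light bar and 3.47 CPM in the red bar.

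A UMI of the effector chemokine Ccl5 gave another division. Among AAV-sgSCR CD90.1-dominant cells, the 121 without Ccl5 had 219 CPM of Tnfrsf4, 227 CPM of Cd28 and 102 CPM of Icos. The 746 with Ccl5 had 41.9 CPM of Tnfrsf4, 79.0 CPM of Cd28 and 31.1 CPM of Icos. The 206 AAV-sgBaat cells with Ccl5 had 2.43 CPM of Tnfrsf4, 36.4 CPM of Cd28 and 9.71 CPM of Icos, below the AAV-sgSCR cells with Ccl5. That Tnfrsf4 value rests on 2 UMIs (interval 0.294 to 8.77 CPM), where 3 counts would be 3.64 CPM, and the Icos value on 8 UMIs. Within cells with Ccl5, 4 of the 8 genes were lower past 1.5-fold, where 24.2% of all genes passed. Cd40lg had too few UMIs for a call there (1 in AAV-sgBaat and 7 in AAV-sgSCR).

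Other measures also differed between these CD90.1-dominant sums. A Pdcd1 UMI was present in 44.5% of AAV-sgBaat and 66.2% of AAV-sgSCR cells, and the median mitochondrial share was 2.38% in AAV-sgBaat and 4.11% in AAV-sgSCR. A Mki67 UMI was present in 17.0% of AAV-sgBaat and 14.3% of AAV-sgSCR cells. Summed B cell markers stood at 21.4 CPM in AAV-sgBaat and 7.76 CPM in AAV-sgSCR (6 of 6 present in both), and NK markers at 243 and 101 CPM (8 of 8 in both). Monocyte and macrophage markers stood at 131 CPM in AAV-sgBaat and 68.4 CPM in AAV-sgSCR (9 of 9 present in both), neutrophil markers at 308 and 410 CPM (4 of 4 in both), and dendritic cell markers at 9.02 and 15.5 CPM (2 and 4 of 5, with Fscn1 at 0 in both). Hepatocyte markers stood at 9.02 CPM in AAV-sgBaat (3 of 5) and 11.7 CPM in AAV-sgSCR (5 of 5). Regulatory T cell markers, a list that includes Ctla4, stood at 129.6 CPM in AAV-sgBaat (2 of 4, with Foxp3 and Il2ra at 0) and 182 CPM in AAV-sgSCR (3 of 4, with Foxp3 at 0). Their part in the receptor levels was not tested. With cells limited to at most 5% mitochondrial UMIs, 4 of the 8 genes were lower past 1.5-fold, where 24.5% of all genes passed.

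Single cells in AAV-sgBaat livers also had fewer kinds of receptor. With cells thinned to 3000 UMIs (136 AAV-sgBaat and 749 AAV-sgSCR CD90.1-dominant cells, 93 and 118 shallower ones left out), at least 2 of the 8 receptors were detected in 25.0% (18.0 to 33.1) of AAV-sgBaat and 49.5% (45.9 to 53.2) of AAV-sgSCR cells. At least 3 were detected in 7.35% (3.58 to 13.1) of AAV-sgBaat and 22.0% (19.1 to 25.2) of AAV-sgSCR cells. The mean number per cell was 0.993 in AAV-sgBaat and 1.64 in AAV-sgSCR. CD90.2-dominant cells differed less, with at least 2 receptors in 36.0% of the AAV-sgBaat cells, 40.1% of the AAV-sgSCR cells and 42.7% of the mock cells.

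**Figure D3:**
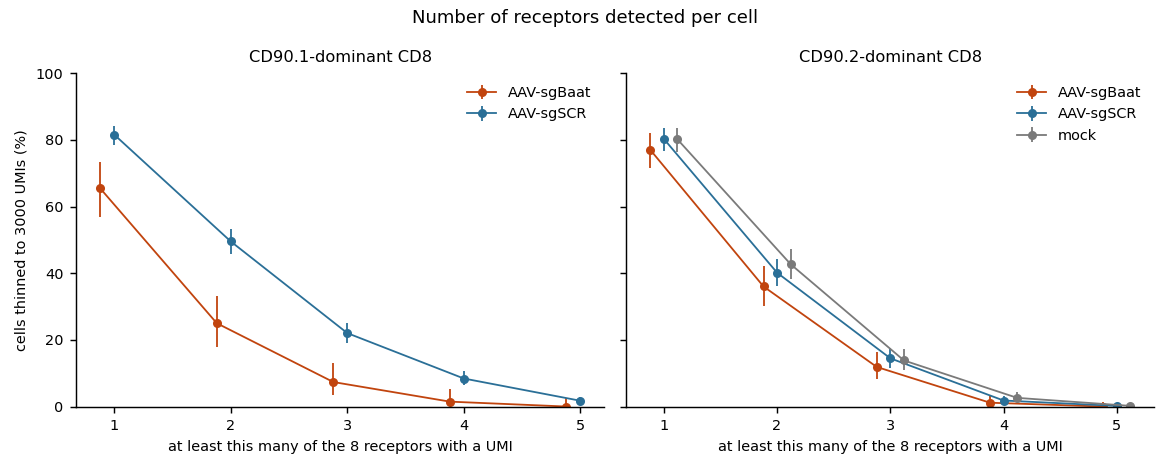
Share of CD8 cells, thinned to 3000 UMIs, with a UMI of at least the number of receptors on the horizontal axis. Lines join the libraries' points and bars are exact 95% binomial intervals; mock is not drawn for the CD90.1-dominant class, which had 12 cells. At 2 or more receptors the CD90.1-dominant curves stand at 25.0% for AAV-sgBaat and 49.5% for AAV-sgSCR, while the CD90.2-dominant curves stand between 36.0% and 42.7%.

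In AAV-sgSCR CD90.1-dominant cells Tnfrsf18, Cd28 and Icos were each found more often in cells with Tnfrsf4. Among the 91 cells with a Tnfrsf4 UMI at 3000 UMIs, 56.0% also had Tnfrsf18, 49.5% Cd28 and 31.9% Icos. Among the 658 without one, 35.1% had Tnfrsf18, 18.5% Cd28 and 7.14% Icos. Without regard to Tnfrsf4 they were not all found together: Icos was found in 9.57% of cells with Tnfrsf18 and 10.5% of cells without it, and Cd28 in 24.8% and 20.8%, with overlapping intervals. Cd28 and Icos did go together, with Cd28 in 35.5% (24.9 to 47.3) of cells with Icos and 20.8% (17.8 to 24.1) of cells without it. Cd226 was found in 27.5% of cells with Tnfrsf4 and 28.6% of cells without it. Tnfrsf9 followed less closely, at 27.5% of cells with Tnfrsf4 (18.6 to 37.8) and 19.0% of cells without it (16.1 to 22.2).

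In CD90.2-dominant CD8 cells the libraries were closer in the costimulatory receptors. Of the 8 members, 2 were lower past 1.5-fold in AAV-sgBaat and 0 higher, where 16.1% of all genes passed (4.88% higher and 11.2% lower). Tnfrsf4 had 6 UMIs (3.92 CPM) in AAV-sgBaat cells and 45 UMIs (12.0 CPM) in AAV-sgSCR cells, a log2 ratio of -1.62 (-3.14 to -0.38). Of the 45 AAV-sgSCR UMIs, 25 lay in the 17 cells marked by the 7 population genes, and without marked cells Tnfrsf4 stood at 3.98 CPM in AAV-sgBaat and 5.50 CPM in AAV-sgSCR, no longer past the fold. Cd40lg had 4 UMIs in AAV-sgBaat cells and 21 in AAV-sgSCR cells, and its interval of -3.11 to 0.46 included no difference.

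The other members of CD90.2-dominant cells stayed within the fold. Cd28 had 146 CPM in AAV-sgBaat and 157 CPM in AAV-sgSCR, and Icos had 22.9 CPM in AAV-sgBaat and 27.3 CPM in AAV-sgSCR. Tnfrsf18 had 82.4 CPM in AAV-sgBaat and 97.9 CPM in AAV-sgSCR, a log2 ratio of -0.25 (-0.55 to 0.05). Whether the drop of Cd28, Icos and Tnfrsf18 differed between the CD90.1-dominant and CD90.2-dominant classes could not be tested with 1 library per group. Their ratio intervals did not overlap between the classes.

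Within one library, the CD90.1-dominant cells were set apart from the CD90.2-dominant cells by Tnfrsf9. In AAV-sgBaat it had 82.3 CPM in CD90.1-dominant and 12.4 CPM in CD90.2-dominant cells, a log2 ratio of 2.73 (1.98 to 3.54). In AAV-sgSCR it had 92.7 CPM in CD90.1-dominant and 15.5 CPM in CD90.2-dominant cells, a log2 ratio of 2.58 (2.18 to 3.00). Tnfrsf9 was thus higher on the CD90.1-dominant side in both vector groups. The 12 CD90.1-dominant cells of the mock library held 6 Tnfrsf9 UMIs, 115 CPM, and no Tnfrsf4 UMI.

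The other members split by library. In AAV-sgSCR, Tnfrsf4 (64.8 CPM in CD90.1-dominant and 12.0 CPM in CD90.2-dominant cells) and Tnfrsf18 (164 and 97.9 CPM) were also higher in CD90.1-dominant cells, and Cd28 (98.1 and 157 CPM) was lower, 4 of 8 members called where 29.2% of genes were (20.6% higher and 8.59% lower). The Tnfrsf18 call was lost without cells of the marked population (log2 ratio 0.55, against 0.75 with all cells) and with mixed-lineage barcodes kept (0.43). In AAV-sgBaat, Cd28 (34.9 CPM in CD90.1-dominant and 146 CPM in CD90.2-dominant cells) and Icos (9.02 and 22.9 CPM) were lower, and with Tnfrsf9 3 of the 6 members with enough UMIs were called, where 33.3% of genes were (23.6% higher and 9.74% lower). The Icos call was lost with cells thinned to 1000 UMIs (log2 ratio -0.28, against -1.34). Tnfrsf18 had 75.5 CPM in CD90.1-dominant and 82.4 CPM in CD90.2-dominant cells of AAV-sgBaat. The tag gate, not a sort, set these classes, and the median CD90.1 tag count was 863 in AAV-sgBaat and 1007 in AAV-sgSCR CD90.1-dominant cells.

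Against mock livers, CD90.2-dominant CD8 cells of both vector groups had more Tnfrsf18 and less Icos and Cd28. These comparisons share the mock sums. In AAV-sgBaat, Tnfrsf18 had 82.4 CPM, against 42.4 CPM in mock (log2 ratio 0.96), Icos had 22.9 CPM against 54.5 CPM in mock (-1.25), and Cd28 had 146 CPM against 259.9 CPM in mock (-0.83). Cd40lg was lower as well, on 4 and 20 UMIs in AAV-sgBaat and mock, and 4 of the 7 members with enough UMIs were called where 29.4% of genes were (10.7% higher and 18.7% lower). In AAV-sgSCR, Tnfrsf18 had 97.9 CPM (log2 ratio 1.21), Icos 27.3 CPM and Cd28 157 CPM (-0.73), against the same mock levels. Tnfrsf4 was the fourth gene there, with 12.0 CPM in AAV-sgSCR and 3.56 CPM in mock, and 4 of 8 were called where 23.6% of genes were (11.7% higher and 11.9% lower).

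The makeup of the CD90.2-dominant class moved with these differences. Cells with a Ccl5 UMI made up 81.2% in AAV-sgBaat, 90.4% in AAV-sgSCR and 51.8% in mock. Among cells with Ccl5 alone, 4 members were past the fold in AAV-sgBaat against mock, where 28.8% of genes were, and 5 in AAV-sgSCR against mock, where 23.6% were. They were not the same members as over all cells. Tnfrsf9 joined them as lower in both, with 10.7 CPM in AAV-sgBaat and 14.3 CPM in AAV-sgSCR, against 22.1 CPM in mock, and Cd40lg had too few UMIs for a call in AAV-sgBaat (3 UMIs, against 14 in mock).

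**Figure D4:**
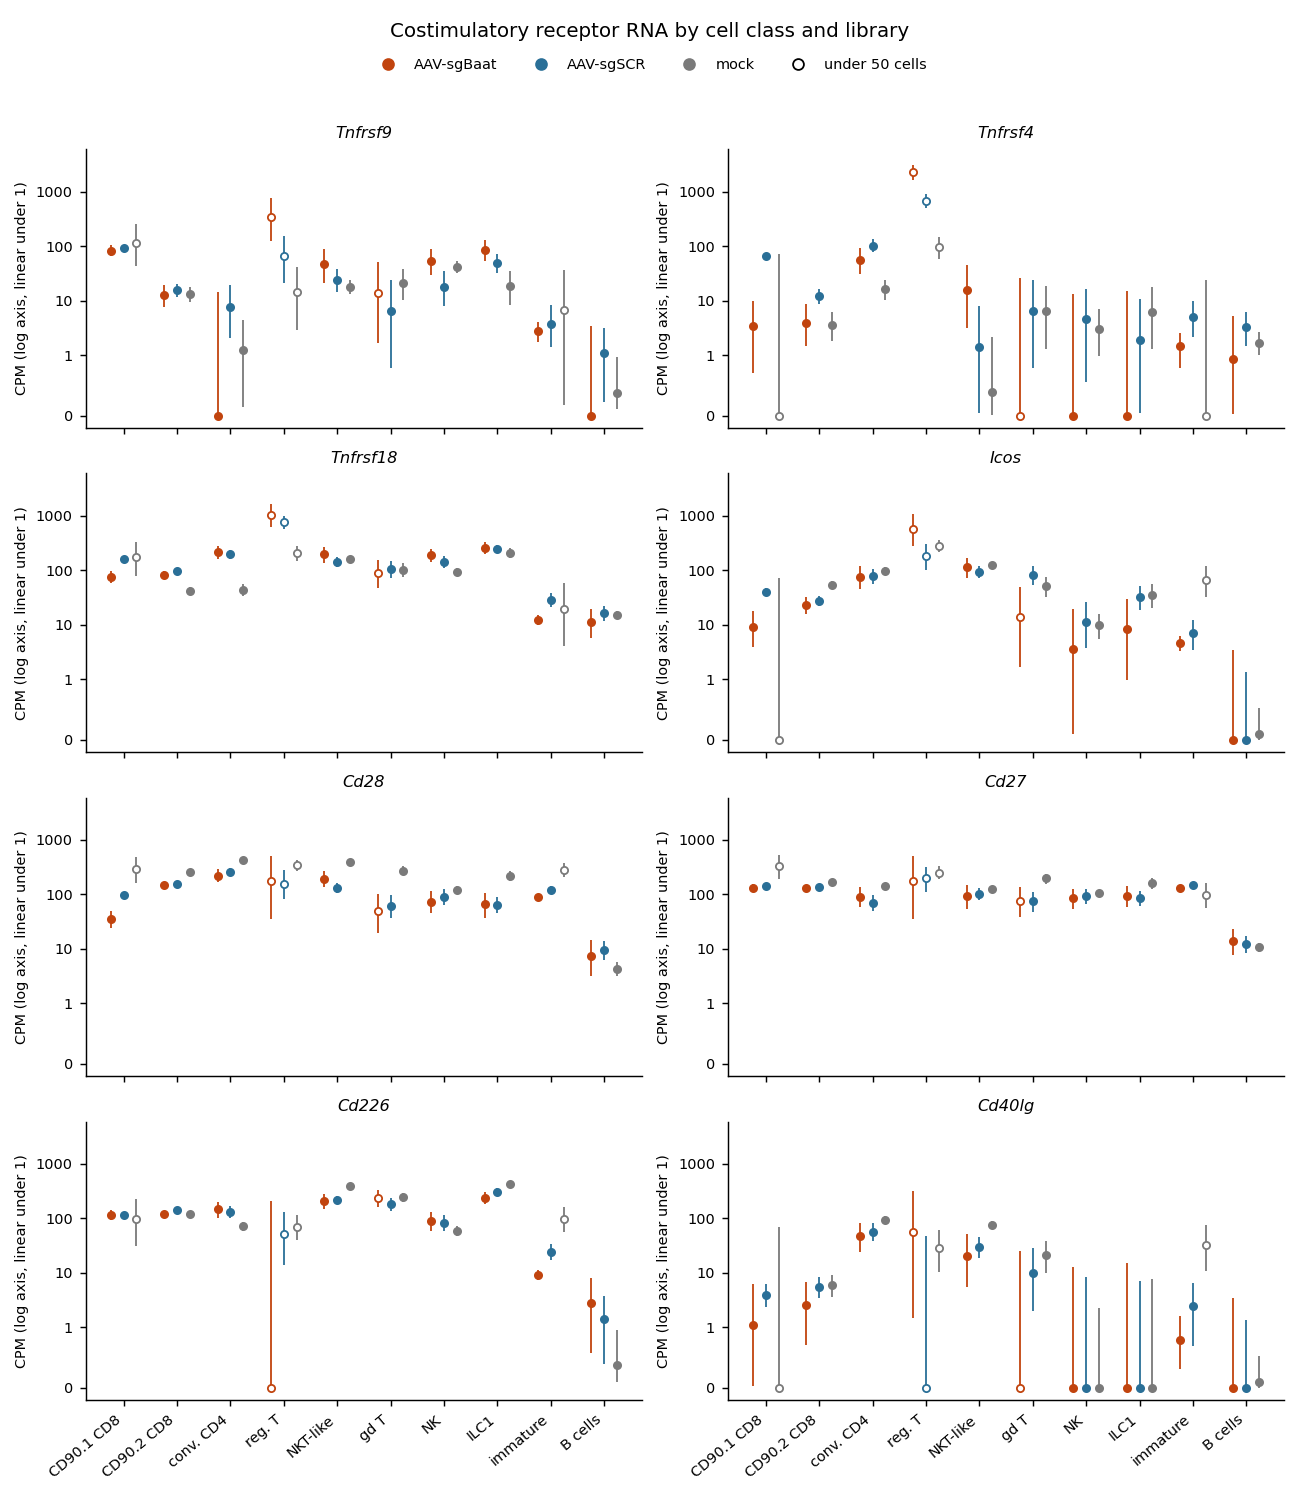
CPM of each gene (panels) in lymphocyte classes and B cells, by library (AAV-sgBaat red, AAV-sgSCR blue, mock grey). Points are summed UMIs with 95% Poisson intervals on a log axis that is linear under 1, and open points are classes with under 50 cells. Tnfrsf4 is at 3.38 CPM in AAV-sgBaat and 64.8 CPM in AAV-sgSCR CD90.1-dominant cells, and Cd40lg is at 0 in NK cells and ILC1 of all libraries.

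Conventional CD4 cells of both vector groups had more Tnfrsf4, Tnfrsf18 and Cd226, and less Cd28, Cd27 and Cd40lg, than those of mock livers. In AAV-sgBaat, Tnfrsf18 had 214 CPM, against 43.6 CPM in mock (log2 ratio 2.29, interval 1.76 to 2.82), and Tnfrsf4 had 55.4 CPM against 16.0 CPM in mock (1.79, interval 0.74 to 2.79). In AAV-sgSCR, Tnfrsf18 had 196 CPM (2.17) and Tnfrsf4 had 102 CPM (2.67, interval 1.97 to 3.41). The same 6 genes passed in the same direction in both comparisons, which share the mock sums, of 7 with enough UMIs, where 42.6% of genes passed for AAV-sgBaat (19.2% higher and 23.4% lower) and 36% for AAV-sgSCR (19.1% higher and 17% lower).

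Cd28 of conventional CD4 cells had 222 CPM in AAV-sgBaat and 255 CPM in AAV-sgSCR, against 427 CPM in mock. Cd40lg, the helper ligand of CD4 cells, had 47.5 CPM in AAV-sgBaat and 56.6 CPM in AAV-sgSCR, against 92.8 CPM in mock. Set against each other, the vector groups differed past the fold in 1 of 7 genes, where 26.7% of all genes passed (10.6% higher and 16.1% lower). That gene was Tnfrsf4, with 14 UMIs (55.4 CPM) in AAV-sgBaat cells and 54 UMIs (102 CPM) in AAV-sgSCR cells, a log2 ratio of -0.88 whose interval ended at -0.01.

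Regulatory T cells were too few for a ratio, with 7, 19 and 29 cells in AAV-sgBaat, AAV-sgSCR and mock. Their Tnfrsf4 level was 2302 CPM (1644 to 3134) in AAV-sgBaat and 681 CPM (508 to 893) in AAV-sgSCR, against 94.5 CPM (57.7 to 146) in mock. These intervals did not overlap, but they cover counting error only and not the spread between so few cells. Tnfrsf18 had 1036 CPM in AAV-sgBaat and 759 CPM in AAV-sgSCR, against 203 CPM in mock. The Tnfrsf4 values rest on 40, 52 and 20 UMIs in AAV-sgBaat, AAV-sgSCR and mock.

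Among innate-like lymphocytes, Cd226 set ILC1 apart from NK cells in every library. It had 241 CPM in ILC1 and 91.4 CPM in NK cells of AAV-sgBaat (log2 ratio 1.40), 304 and 83.5 CPM in AAV-sgSCR (1.86), and 427 and 59.5 CPM in mock (2.84). The ILC1 over NK comparison called 2 of 5 members in AAV-sgBaat, 4 of 6 in AAV-sgSCR and 6 of 6 in mock, where 27.9%, 25.4% and 29.6% of genes were called. Tnfrsf9 was lower in mock ILC1 than in mock NK cells (18.5 and 41.9 CPM) and higher in AAV-sgSCR ILC1 than in AAV-sgSCR NK cells (49.1 and 18.1 CPM). In AAV-sgBaat it had 85.9 CPM in ILC1 and 52.8 CPM in NK cells, called higher at a log2 ratio of 0.70 whose interval (-0.32 to 1.76) included no difference.

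In ILC1, Tnfrsf9 was higher in both vector groups than in mock and Cd28 was lower. Tnfrsf9 had 85.9 CPM in AAV-sgBaat ILC1 and 49.1 CPM in AAV-sgSCR ILC1, against 18.5 CPM in mock ILC1 (log2 ratios 2.22 and 1.41). Cd28 had 65.4 CPM in AAV-sgBaat and 64.2 CPM in AAV-sgSCR, against 218 CPM in mock (-1.74 and -1.76). In the AAV-sgBaat comparison 4 of 5 members were called, where 39.9% of genes were (9.17% higher and 30.8% lower), and in the AAV-sgSCR comparison 3 of 6, where 34.5% were (8.6% higher and 25.9% lower). Between the vector groups Tnfrsf9 alone was called in ILC1 (0.81, interval -0.10 to 1.69) and in NK cells, with 52.8 CPM in AAV-sgBaat and 18.1 CPM in AAV-sgSCR NK cells (1.55, interval 0.22 to 2.99), 1 of 5 members each. In ILC1 23.3% of genes were called (9.69% higher) and in NK cells 22.3% (9.34% higher).

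NK cells of the vector groups differed from mock in few members. Tnfrsf18 had 186 CPM in AAV-sgBaat and 142 CPM in AAV-sgSCR NK cells, against 92.9 CPM in mock (log2 ratios 1.01 and 0.61). In AAV-sgBaat, Cd226 (91.4 CPM, against 59.5 CPM in mock) and Cd28 (73.9 CPM, against 121 CPM in mock) also passed, 3 of 5 where 40% of genes did (9.24% higher and 30.8% lower). In AAV-sgSCR, Tnfrsf9 had 18.1 CPM, against 41.9 CPM in mock, the other of 2 called among 6, where 35.2% of genes were (8.43% higher and 26.8% lower).

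NKT-like cells of the vector groups had less Cd28, Cd226 and Cd40lg than those of mock livers. Cd28 had 194 CPM in AAV-sgBaat and 129.7 CPM in AAV-sgSCR, against 388 CPM in mock. Cd226 had 209.8 CPM in AAV-sgBaat and 217 CPM in AAV-sgSCR, against 396 CPM in mock, and Cd40lg had 20.5 and 29.9 CPM in AAV-sgBaat and AAV-sgSCR, against 77.4 CPM in mock. For AAV-sgBaat 4 of 7 members were called where 41.6% of genes were (14.5% higher and 27.1% lower), Tnfrsf9 being higher, and for AAV-sgSCR 3 of 7 where 32.6% were (10.6% higher and 22% lower). Between the vector groups Tnfrsf9 (46.1 CPM in AAV-sgBaat and 24.2 CPM in AAV-sgSCR) and Cd28 were called higher in AAV-sgBaat, 2 of 7 where 28.9% of genes were (11.6% higher), and both intervals included no difference.

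NKT-like cells differed from conventional CD4 cells in Tnfrsf4, which was found in 1 UMI of NKT-like cells and 54 UMIs of conventional CD4 cells in AAV-sgSCR, a log2 ratio of -6.16 (-11.49 to -3.62). In mock the counts were 1 and 26 UMIs (-5.36, interval -10.72 to -2.75). In AAV-sgBaat they were 3 and 14 UMIs, too few for a call. Cd226 was higher in NKT-like cells of mock livers (396 CPM, against 72.5 CPM in conventional CD4 cells) and of AAV-sgSCR livers (217 and 132 CPM). In all, 0 of 5 members were called in AAV-sgBaat, 5 of 8 in AAV-sgSCR and 4 of 8 in mock, where 26.7%, 27.2% and 35.7% of genes were.

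Gamma-delta T cells could be compared between AAV-sgSCR and mock. Cd28 had 62.0 CPM in AAV-sgSCR and 274 CPM in mock (log2 ratio -2.14), and Cd27 had 75.0 and 196 CPM (-1.38). Icos had 81.6 CPM in AAV-sgSCR and 50.5 CPM in mock, with an interval of -0.18 to 1.56 that included no difference. Of 5 members, 3 were called, where 36.9% of genes were (13.5% higher and 23.3% lower).

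Immature T-like cells, gated on Dntt, Arpp21, Rag1, Rag2 and Ptcra, had a median CD90.1 tag count of 2293 in AAV-sgBaat and 2974 in AAV-sgSCR. Cd27 had 131 CPM in AAV-sgBaat and 149 CPM in AAV-sgSCR, and Cd28 had 88.8 CPM in AAV-sgBaat and 122 CPM in AAV-sgSCR. Tnfrsf18 (12.3 CPM in AAV-sgBaat and 29.0 CPM in AAV-sgSCR) and Cd226 (9.19 and 24.6 CPM) were lower in AAV-sgBaat. After scaling, so were Tnfrsf4 (13 UMIs in 1047 AAV-sgBaat cells and 8 UMIs in 139 AAV-sgSCR cells) and Icos (40 and 11 UMIs). Both rest on few AAV-sgSCR UMIs. The median log2 ratio over the 7 members was -0.61, which is also the weakest of the 4 calls and just past 1.5-fold. These 4 of 7 members compare with 18.1% of genes called (11.1% lower).

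Across classes with at least 50 cells, which leaves out regulatory T cells, each gene had its own order of levels. In AAV-sgSCR, Tnfrsf9 was highest in CD90.1-dominant CD8 cells (92.7 CPM, interval 84.2 to 102), followed by ILC1 (49.1 CPM, 32.1 to 72.0). NKT-like, NK and CD90.2-dominant CD8 cells came next at 24.2, 18.1 and 15.5 CPM, with intervals that overlapped each other, and that of NKT-like cells also overlapped that of ILC1. This order did not hold in AAV-sgBaat, where Tnfrsf9 of ILC1 stood close to that of CD90.1-dominant CD8 cells and slightly above it. In AAV-sgSCR, Tnfrsf4 was highest in conventional CD4 cells (102 CPM, 76.5 to 133), then in CD90.1-dominant CD8 cells (64.8 CPM, 57.8 to 72.4) and CD90.2-dominant CD8 cells (12.0 CPM). The gamma-delta, immature T-like, NK, NKT-like and ILC1 classes had 1 to 8 Tnfrsf4 UMIs each. Icos was highest in NKT-like, gamma-delta and conventional CD4 cells (94.0, 81.6 and 77.4 CPM), whose intervals overlapped. Among these classes Tnfrsf18 was highest in ILC1 in each library (258 CPM in AAV-sgBaat, 248 CPM in AAV-sgSCR and 208 CPM in mock). Cd226 was highest in ILC1 and next in NKT-like cells in AAV-sgBaat (241 and 209.8 CPM), AAV-sgSCR (304 and 217 CPM) and mock (427 and 396 CPM). Cd27 in AAV-sgSCR lymphocytes lay between 69.8 CPM in conventional CD4 cells and 149 CPM in immature T-like cells. Cd28 was highest in conventional CD4 cells in each library (222, 255 and 427 CPM in AAV-sgBaat, AAV-sgSCR and mock). Cd40lg had 0 UMIs in NK cells and ILC1 of every library and was highest in conventional CD4 cells, then in NKT-like cells, in each library.

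The likeness of members to other genes was described by Pearson's r of log2(CPM + 1) over 30 sums of a class in a library, which share libraries and depth. Cd28 was most like Prkcq (r = 0.96) and Lck, and Cd27 most like Lck (0.96) and Zap70. Cd226 was most like Apol7e (0.97), Tnfrsf18 most like Myo6 (0.94), Cd40lg most like Ly6c1 (0.94) and Tnfrsf9 most like Srgap3 (0.90). Tnfrsf4 had its best match at a lower r, Tbc1d4 at 0.71. Among the members, Cd28 and Cd27 had an r of 0.94, Tnfrsf18 and Cd226 0.92, and Tnfrsf9 and Tnfrsf4 0.18.

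Of 27 genes that carry signals from these receptors, 2 were higher and 6 lower past 1.5-fold in CD90.1-dominant CD8 cells of AAV-sgBaat against AAV-sgSCR, where 25.4% of all genes passed (10.3% higher and 15.1% lower). The median log2 ratio was -0.38 over the list and -0.02 over all genes. The largest differences were in Birc3, an NF-kB target and TRAF partner (11.3 CPM in AAV-sgBaat and 23.1 CPM in AAV-sgSCR, log2 ratio -1.03), Siva1, a CD27-binding protein (135 and 67.3 CPM, 1.01), the NF-kB subunit Nfkb1 (50.7 and 99.4 CPM, -0.97) and Malt1, which links antigen receptors to NF-kB (69.9 and 133 CPM, -0.93). In CD90.2-dominant cells 0 of the 27 were higher and 1 lower, Traf5, where 16.1% of all genes passed (4.88% higher and 11.2% lower). The median there was -0.03 over the list and -0.04 over all genes.

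The ligands were read in the other immune cells. Cd86, a ligand of Cd28, had 56.2 CPM in AAV-sgBaat, 50.8 CPM in AAV-sgSCR and 53.2 CPM in mock monocytes and macrophages, where the intervals overlapped. In B cells Cd86 had 17.6 CPM in AAV-sgBaat and 20.7 CPM in AAV-sgSCR, against 76.2 CPM in mock. Icosl, the Icos ligand, followed the same order in B cells, with 16.7, 22.5 and 56.5 CPM in AAV-sgBaat, AAV-sgSCR and mock, and Cd40, the receptor of Cd40lg, had 33.4, 31.2 and 59.9 CPM. Tnfsf9, the ligand of Tnfrsf9, had 5.82 CPM in AAV-sgBaat, 9.60 CPM in AAV-sgSCR and 1.52 CPM in mock monocytes and macrophages. The mock value rests on 1 UMI. Tnfsf4, Tnfsf18, Cd70, Cd80, Pvr and Nectin2 each had at most 7.60 CPM in monocytes and macrophages and in B cells of every library. Some were higher in other classes. In AAV-sgSCR dendritic cells Cd86 had 105 CPM, Cd40 35.6 CPM, Pvr 15.4 CPM and Cd80 9.62 CPM, and in AAV-sgSCR neutrophils Cd80 had 11.9 CPM. The 34 AAV-sgBaat dendritic cells held 0 Pvr UMIs and 1 Cd80 UMI, and the 35 of mock held 8 and 1. Tnfsf18, the GITR ligand, had 2 UMIs over all classes in which it was summed, both in mock B cells. In CD90.1-dominant CD8 cells themselves Cd70, the ligand of Cd27, was at 0 UMIs in the AAV-sgBaat library and at 21 UMIs (4.40 CPM) in the AAV-sgSCR library. In those AAV-sgBaat cells 3 counts would be 3.38 CPM, so the depth hardly tells these levels apart.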

How the data were processed

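Single-cell mRNA counts with CD90.1 and CD90.2 antibody tags were analysed for AAV-sgBaat, AAV-sgSCR and mock livers (1 library each). The authors deposited unnormalized UMI counts for each gene in each barcode, made with Cell Ranger 6.0.1 per the file headers and on mm10 per the submitters' processing notes. Antibody libraries without files of their own were not analysed here. T cells and the remaining immune cells had been sorted from each group, per the labels' protocols. The labels name a hashtag antibody where the matrices name F4/80, which was not used.

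Barcodes with at least 500 genes, 1000 gene UMIs and at most 10% mitochondrial UMIs were kept. T cells needed 2 Cd3 UMIs, and CD8 cells 100 tag UMIs. Barcodes with markers of another lineage were left out. Scrublet (scanpy 1.11.5) called 1, 1 and 258 doublets in AAV-sgBaat, AAV-sgSCR and mock, so it had not worked in the vector libraries and was not used to filter. Counts were summed per class and library with numpy 2.4.6 and scipy 1.17.1. Counts were also simulated for the CD90.1-dominant AAV-sgBaat over AAV-sgSCR comparison, and 200 of 200 changed genes were recovered among 9597 genes. Those genes were well counted and were changed by far more than 1.5-fold. Their recovery therefore says nothing about calls on few UMIs or near the fold. Of the 9397 unchanged genes 1494 also passed 1.5-fold, so a call alone is not a test. Members, lists and the 7 population genes were chosen with earlier results of these data known. Named genes were the 8 members, the inhibitory receptors Ctla4, Tigit and Pdcd1, the signalling genes that differed most and the best matches by likeness, of which that of Icos is not reported here.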

Additional observations from a re-analysis of the deposited data

Results flagged for a closer look

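Tnfrsf4 and Tnfrsf9 were also found outside the T cell comparisons, in gated dendritic cells of the AAV-sgSCR library, above their level in mock. Tnfrsf4 stood at 146 CPM (133 to 160) in 228 AAV-sgSCR dendritic cells, against 0 UMIs in 35 mock dendritic cells, where 3 counts would be 6.69 CPM. Tnfrsf9 stood at 33.7 CPM (27.5 to 40.8) in AAV-sgSCR, against 0 UMIs in mock. Among the AAV-sgSCR cells, 82 had at least 3 UMIs of Ccr7 and Fscn1 together, genes of migratory dendritic cells, and these held 453 of 454 Tnfrsf4 UMIs and 104 of 105 Tnfrsf9 UMIs. Cd3e had 0 UMIs and Trac 5 UMIs in these 82 cells. AAV-sgBaat had 34 dendritic cells, of which 1 met the same condition and held all 6 Tnfrsf4 and 3 Tnfrsf9 UMIs. No mock dendritic cell met it, so the library and the cell state cannot be told apart.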

How the results depend on the processing

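No paired analysis was possible because each group is 1 library, and for the same reason no replicate could be left out. Under 12 other settings and 1 more chosen after seeing the data, 527 of 568 member ratios moved by less than their counting interval, 41 moved by more and 0 called ratios changed sign. In CD90.1-dominant CD8 cells of AAV-sgBaat over AAV-sgSCR, 4 or 5 members passed 1.5-fold in each alternative. In CD90.2-dominant cells the count of 2 became 4 when every cell weighed the same (20.2% of genes) and 1 without cells of the marked population, the choice made after seeing the data. Thinning to 1000 UMIs changed the count of 3 for CD90.1-dominant over CD90.2-dominant cells within AAV-sgBaat to 1, and the count of 4 for AAV-sgBaat over mock CD90.2-dominant cells to 2. Apart from the 20.2% above, no share of all genes past the fold stands beside these counts. They say only whether calls were kept, not how the members compare with all genes. Within AAV-sgSCR, the log2 ratio of Icos in CD90.1-dominant over CD90.2-dominant cells was 0.56, and -0.34 without the marked population, and neither value was called. Scaling by the median ratio shifts all genes by 0.21 (log2) within AAV-sgBaat CD8 cells, by 0.24 for AAV-sgBaat and 0.19 for AAV-sgSCR conventional CD4 cells over mock, and by 0.18 for mock NKT-like over conventional CD4 cells. The cause of these changes was not tested. Depth limits Cd40lg, and Tnfrsf4 in AAV-sgBaat.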
